A study of Mus musculus with 11 samples.

Results

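The genes described here mark macrophages, the resident phagocytes of the vessel wall, in the aorta of old mice given dietary nitrate. They were chosen by name, as every probe that the array files name Cd68, Emr1, Csf1r, Mrc1, Cd163, Lyz2, Itgam, Lyve1, Aif1 or Cd14. The rule uses no measured value, although earlier results of these data were known when the genes were proposed. All 10 genes were among the 36413 gene names of the array, with 15 of its 55681 probes. A probe counted as detected when, on at least 5 arrays of a group, its spots were found, well above background and not flagged. This held for 14 of the 15 probes and for a probe of each of the 10 genes.

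Total RNA came from the descending aorta of male C57BL/6 mice aged 20 months, flushed and cleaned of the fat around it. Old nitrate treated mice (n = 5) had drunk water with 1 g/L sodium nitrate (NaNO3) over 8 weeks. For the old control mice (n = 6) the labels give the same age, sex and strain and call the arrays a re-analysis of earlier samples. The paper states that controls drank sodium chloride at an equal concentration, which the labels do not name, so the labels do not show that both groups were kept together. RNA of each mouse, labeled with Cy3, was hybridized to an Agilent array of probes with 60 bases, and signals are given here as quantile normalized log2 values. A difference of 1 on this scale is a doubling. The study states 6 mice per group, and the sixth nitrate array was not analysed here.

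Between 24760 and 28654 probes were detected on an array, and no spot was saturated. The arrays came from 3 slides, with arrays of both groups on each. Every control array, but no nitrate array, lay in the same column of its slide, so that column and treatment cannot be told apart. Heart muscle genes stood far above the other arrays on 2 arrays, those of nitrate treated mouse 4 and control mouse 1, where the mean of 8 such genes was 3.63 and 3.07 log2 units above its median against -1.17 to 0.80 on the other 9. Calls that changed without these 2 mice are given beside the results.

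Macrophages of an artery sit mainly in its outer layer, take up lipoproteins, dead cells and debris, and depend for survival on the receptor Csf1r and its ligands Csf1 and Il34. Their number and state in the aorta are known to shift with age and with atherosclerosis. The marker genes cover different parts of the cell: Csf1r is the growth factor receptor, Mrc1, Cd163 and Lyve1 are scavenger or uptake receptors of resident macrophages, Cd14 and Itgam (CD11b) serve recognition and adhesion, Emr1 (now Adgre1) encodes a surface antigen by which mouse macrophages are commonly stained, and Cd68, Lyz2 and Aif1 encode a lysosomal protein, lysozyme M and a cytoskeletal protein. In RNA of whole tissue, fewer macrophages and less RNA per macrophage cannot be told apart.

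No macrophage marker gene was differentially expressed between nitrate treated and control aortas. The study called a transcript differentially expressed at a fold change above 1.2 with P under 0.05 before adjustment, and by this rule limma called 0 of the 14 detected probes. Before adjustment, 0 of them had P under 0.05 at any fold change. Over all 23632 detected probes, 2128 were called by the same rule, which is 9%, with 4.16% higher and 4.85% lower in nitrate treated mice. The smallest unadjusted P value of a marker probe was 0.287 and the smallest Benjamini-Hochberg adjusted P value 0.638. The groups overlapped in all 15 probes, whereas they did not overlap in 2.75% of detected probes.

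The differences were small and mostly above 0. They lay between -0.08 and 0.19 log2 units in the 14 detected probes, with a median of 0.11, and 12 of the 14 were higher in nitrate treated mice. Of all detected probes 53.8% were higher, with a median difference of 0.014. The markers varied together from mouse to mouse, so their shared sign is not a count of separate observations. The 95% confidence intervals of limma reached from -0.46 to 0.68 at their outermost, so a marker could be up to 1.38-fold lower or 1.60-fold higher within these data.

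**Figure D1:**
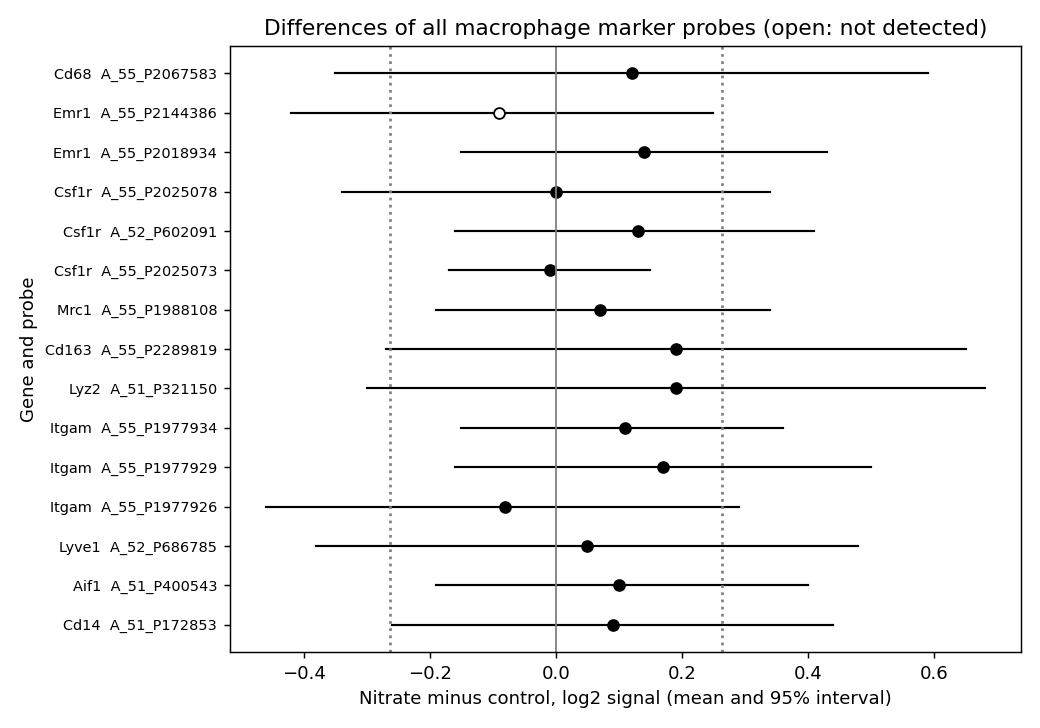
Difference between nitrate treated and control mice (log2 signal, horizontal axis) for each of the 15 macrophage marker probes, with the 95% confidence interval of limma as a line; the dotted lines mark a fold change of 1.2 and the open circle marks the probe that was not detected. Every interval includes 0, and the differences of detected probes lie between -0.08 and 0.19.

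The growth factor receptor Csf1r was measured by 3 probes. For A_52_P602091 (mm9 chr18:61289398-61289758), signals were 7.71, 8.22, 8.39, 7.95 and 7.69 in nitrate treated mice 1 to 5 and 8.04, 7.86, 7.98, 7.83, 7.62 and 7.86 in control mice 1 to 6. The difference was 0.13 ± 0.13 (SE, limma adjusted P = 0.698, exact permutation P = 0.400), and nitrate treated mice 2 and 3 lay above every control. With A_55_P2025078 the difference was 0.00 ± 0.16 (95% interval -0.34 to 0.34). Here nitrate treated mouse 1 alone was low, at 11.96 against 12.51 to 12.96 in the other 10 mice, and the difference was 0.17 without that mouse. The third probe, A_55_P2025073, had the narrowest interval of the markers, -0.17 to 0.15 around -0.01.

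Mrc1, the mannose receptor, had signals of 9.19, 9.76, 9.86, 9.75 and 9.42 in nitrate treated mice and 9.58, 9.53, 9.75, 9.45, 9.36 and 9.48 in controls (A_55_P1988108, mm9 chr2:14253273-14253332). The lowest and the highest of the 11 mice were both nitrate treated, and the difference was 0.07 ± 0.12 (SE, adjusted P = 0.824). Cd163, the receptor that takes up hemoglobin bound to haptoglobin, was dim (A_55_P2289819, mm9 chr6:124270436-124270495). It was well above background on 4 of 5 nitrate arrays and 5 of 6 control arrays, with signals of 4.21, 5.12, 5.48, 4.68 and 4.65 against 4.97, 4.80, 4.43, 4.17, 4.61 and 4.84. Nitrate treated mice 2 and 3 were again the highest, and the difference of 0.19 ± 0.21 (SE, adjusted P = 0.715) stayed within the spread between mice, at 0.03 without nitrate treated mouse 3 and 0.34 without mouse 1.

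Lyve1, a hyaluronan receptor of resident arterial macrophages and of lymphatic vessels, gave 7.98, 8.90, 8.89, 8.29 and 8.12 in nitrate treated mice and 8.35, 7.94, 8.80, 8.26, 8.56 and 8.40 in controls (A_52_P686785, mm9 chr7:117994171-117994230). The difference was 0.05 ± 0.20 (SE, adjusted P = 0.939), and it was -0.07 without nitrate treated mouse 2. The share of lymphatic vessels in this signal was not tested. Of 8 lymphatic endothelial genes, 5 were detected, 0 were called and 1 had an unadjusted P value under 0.05. Prox1 and Flt4, which define lymphatic endothelium, were not detected, while Pdpn was 9.99 in nitrate treated mice and 9.97 in controls (adjusted P = 0.967).

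Lyz2, lysozyme M, had the highest upper bound of the markers. Its signals were 8.48, 9.60, 9.38, 8.66 and 8.55 in nitrate treated mice and 9.22, 8.82, 8.86, 8.74, 8.43 and 8.37 in controls (A_51_P321150, mm9 chr10:116719175-116719234). Nitrate treated mice 2 and 3 exceeded all controls and the other 3 nitrate treated mice lay within the control range, for a difference of 0.19 ± 0.22 (SE, 95% interval -0.30 to 0.68, adjusted P = 0.731). It was 0.03 without nitrate treated mouse 2 and 0.31 without mouse 1. Lyz1 is a close copy of Lyz2, and how far its RNA binds to this probe was not tested.

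Cd68, which encodes macrosialin of the lysosome, was dim on its single probe, A_55_P2067583 (mm9 chr11:69478979-69479038), at 4.85, 5.63, 5.42, 5.06 and 4.75 in nitrate treated mice and 5.43, 4.88, 5.11, 5.05, 4.29 and 5.39 in controls. The difference was 0.12 ± 0.22 (SE, adjusted P = 0.850). Cd68 met the detection criteria on 5 nitrate and 4 control arrays, so it entered the test through the nitrate group, where its mean was higher. Aif1, an actin-binding protein of activated macrophages, had 8.90 to 9.57 in nitrate treated mice, with a median of 9.36, and 8.96 to 9.57 in controls, with a median of 9.15. Its difference was 0.10 ± 0.14 (SE, adjusted P = 0.771).

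Emr1 was detected by A_55_P2018934, at 7.43, 8.04, 7.94, 7.58 and 7.36 in nitrate treated mice and 7.64, 7.39, 7.67, 7.55, 7.29 and 7.65 in controls. Its difference was 0.14 ± 0.13 (SE, adjusted P = 0.666). The other probe, A_55_P2144386, met the detection criteria on 2 nitrate and 4 control arrays and so was not detected. It was well above background on 5 nitrate and 6 control arrays, with means of 8.24 and 8.32. Its difference was of the opposite sign, -0.09 ± 0.15 (SE, limma fit over all probes). Cd14, which hands lipopolysaccharide to Toll-like receptor 4, gave 8.75, 9.16, 9.21, 8.37 and 8.52 against 9.00, 8.80, 8.77, 8.68, 8.43 and 8.57, a difference of 0.09 ± 0.16 (SE, adjusted P = 0.838). In Cd14 the lowest and the 2 highest of the 11 mice were all nitrate treated.

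A pair of nitrate treated mice carried most of the high values. After each gene was centred on its median over the 11 arrays, the mean of the 10 genes was 0.42 in nitrate treated mouse 2 and 0.40 in mouse 3, and each of these mice lay above the median in 10 of 10 genes. Mouse 5 lay below the median in 10 of 10 genes, with a mean of -0.18, mouse 1 below it in 8 of 10, with -0.27, and mouse 4 was at 0.03. Controls ranged from -0.19 in mouse 5 to 0.20 in mouse 1. Itgam enters these means by its probe A_55_P1977934, which holds a CA repeat. With A_55_P1977929 in its place the means were 0.43 in nitrate treated mice 2 and 3, -0.28 in mouse 1, 0.02 in mouse 4 and -0.19 in mouse 5, and -0.24 to 0.21 in controls. Mice 1 and 2 shared a slide, so the lowest and the highest nitrate treated mouse came from the same slide.

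**Figure D2:**
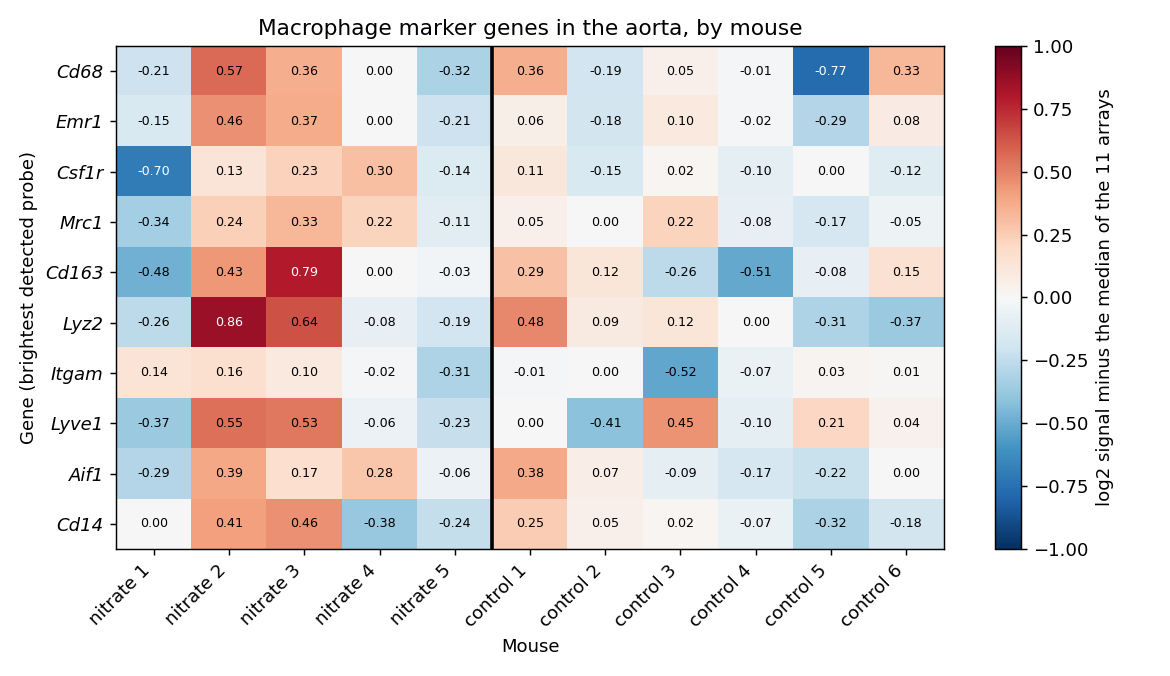
Heat map of log2 signal minus the median of the 11 arrays for the 10 marker genes (rows, brightest detected probe of each) in 5 nitrate treated and 6 control mice (columns), with the value printed in each cell. The Itgam row is the CA-repeat probe A_55_P1977934. Nitrate treated mice 2 and 3 are above 0 in all 10 genes, and mouse 5 is below 0 in all 10.

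The spread of the markers was wider among nitrate treated mice than among controls. In the 14 detected marker probes the median SD was 0.33 in nitrate treated mice and 0.21 in controls, and 11 of the 14 had the larger SD in the nitrate group. Over all detected probes the median SD was 0.16 in nitrate treated mice and 0.18 in controls, and 42.9% had the larger SD in the nitrate group. The difference in spread was not tested, and the markers are not independent of each other.

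Within slides some markers changed direction and others did not. Cd68 (0.09, 0.20 and 0.20 on slides 1, 2 and 3), Itgam A_55_P1977934 (0.16, 0.13 and 0.08) and Csf1r A_52_P602091 (0.01, 0.55 and 0.02) were above 0 on every slide. On slide 2, with 1 nitrate treated mouse (mouse 3) against 2 controls, Cd163 was 0.97, Lyz2 0.83, Cd14 0.58 and Mrc1 0.40 higher in the nitrate treated mouse. On slide 1, with 2 mice of each group, Cd163 was -0.23 and Mrc1 -0.08, and on slide 3, also with 2 against 2, Cd163 was 0.15 and Mrc1 0.03. With slide as a block in limma, 0 marker probes were differentially expressed.

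Itgam encodes the alpha chain of CD11b/CD18, the integrin by which macrophages bind complement and Icam1, and its 3 probes did not follow the same mice. The sequences are shown because they differ in kind: A_55_P1977934 begins with a run of 10 CA units, given in capitals below for its first 30 bases, and the other two, given whole, hold no such run.
Itgam A_55_P1977934 (bases 1 to 30): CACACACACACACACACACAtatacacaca
Itgam A_55_P1977929: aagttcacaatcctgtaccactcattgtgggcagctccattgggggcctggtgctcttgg
Itgam A_55_P1977926: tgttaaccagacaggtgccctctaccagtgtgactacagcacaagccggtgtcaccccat
In mm9 they lie at chr7:135261755-135261814, chr7:135260275-135260334 and chr7:135212140-135212199, on the plus strand, and start at positions 4431, 3410 and 270 of the transcripts that the files assign to them.

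The probe with the repeat had signals of 14.96, 14.98, 14.93, 14.80 and 14.52 in nitrate treated mice and 14.81, 14.82, 14.31, 14.75, 14.86 and 14.84 in controls. Nitrate treated mice 1, 2 and 3 all lay above every control on it, whereas mouse 1 lay below the median in 8 of the other 9 genes. A_55_P1977929 gave 6.13, 6.35, 6.58, 6.02 and 5.72 in nitrate treated mice and 6.24, 5.75, 6.11, 6.02, 5.68 and 6.14 in controls, with mice 2 and 3 highest. None of the 3 probes was differentially expressed, with differences of 0.11 ± 0.12, 0.17 ± 0.15 and, for A_55_P1977926, -0.08 ± 0.17 (SE, adjusted P = 0.708, 0.638 and 0.869).

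Across the 11 mice, Pearson's r with the mean of the other 9 marker genes was 0.20 for the probe with the repeat, 0.78 for A_55_P1977929 and 0.73 for A_55_P1977926. Among the 12 probes of the other genes this r lay between 0.61 and 0.96. The array held 105 probes with a run of at least 8 CA or TG units, which is 0.189% of all probes. Of these, 98.1% were detected, against 42.3% of the other probes. What RNA binds to the repeat probe of Itgam was not tested. As the detected Itgam probe with the highest mean signal it stands for Itgam in the 10-gene means, the heat map and the pairs of genes. None of the other 14 marker probes held more than 3 units of any dinucleotide in a row.

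**Figure D3:**
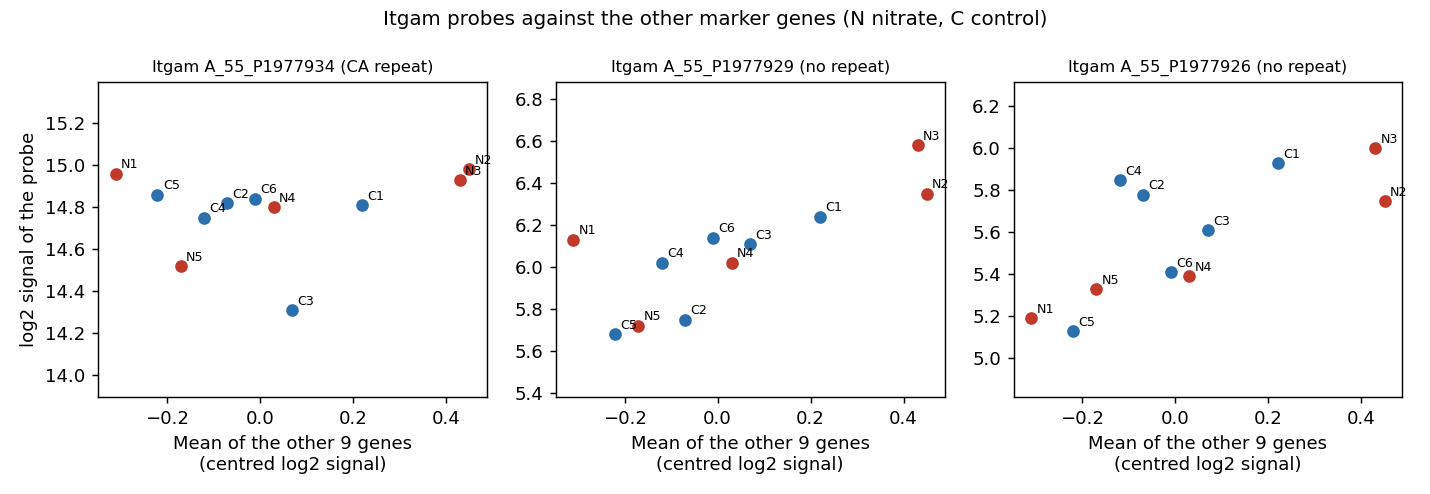
Log2 signal of each of the 3 Itgam probes (vertical axes, equal span) against the mean of the centred log2 signals of the other 9 marker genes (horizontal axis), 1 point per mouse, red for nitrate treated (N) and blue for control (C). The 2 probes without a repeat rise with the other markers (r of 0.78 and 0.73 over 11 mice), and the probe with the CA repeat does not follow them (r of 0.20).

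Over the 45 pairs of the 10 genes, r had a median of 0.61 and a range from -0.11 to 0.89, and 29 pairs were above 0.5. The points share arrays and normalization, so these values describe the 11 mice. Inside the groups, after the group means were taken out, the median was 0.61 as well. The 3 pairs below 0 all held the repeat probe of Itgam. With A_55_P1977929 in its place, a choice made after seeing the data, the median was 0.65, the lowest r was 0.17, and 36 pairs were above 0.5.

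The detected transcripts most like the mean of the markers over the 11 mice were C1qa, C1qb and Cd300ld (r = 0.94 each), LOC547349 and Arhgdib (0.92), Gm11428, Gmfg and C1qc (0.91), and Slc11a1 and Snx20 (0.90). C1qa, C1qb and C1qc encode the 3 chains of complement C1q, which macrophages make. None of these 10 was differentially expressed. The largest difference among them was 0.13 (LOC547349, adjusted P = 0.703), and C1qa was 0.05 higher (95% interval -0.26 to 0.36, adjusted P = 0.909).

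Promoters were looked at because the markers moved together. RefSeq windows (GRCm38.p6, a later build than the mm9 of the probes) were given for 6 of the 10 genes, and the 250 bases before the transcription start were searched for GAGGAA on both strands. These letters are the core that the factor PU.1, the master regulator of the macrophage lineage, is known to bind. They were present in 4 of the 6 windows (Mrc1, Itgam, Cd68 and Aif1; not in those of Cd163 and Lyz2) and in 23.3% of all 32851 windows of this length. Itgam and Cd68 are shown with each match, read as GAGGAA or its reverse complement TTCCTC, in capitals.
Itgam promoter, chr7:128062390-128062639, plus strand: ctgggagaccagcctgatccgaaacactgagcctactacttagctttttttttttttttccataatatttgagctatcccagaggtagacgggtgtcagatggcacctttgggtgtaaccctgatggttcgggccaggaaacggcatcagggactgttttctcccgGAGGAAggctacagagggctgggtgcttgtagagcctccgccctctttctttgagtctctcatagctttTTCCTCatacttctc
Cd68 promoter, chr11:69666171-69666420, minus strand: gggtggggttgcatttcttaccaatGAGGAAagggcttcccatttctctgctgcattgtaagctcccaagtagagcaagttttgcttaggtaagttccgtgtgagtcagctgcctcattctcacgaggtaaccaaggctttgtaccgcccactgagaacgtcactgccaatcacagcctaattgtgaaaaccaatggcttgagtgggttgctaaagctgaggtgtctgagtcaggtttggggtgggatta
Itgam held 2 matches and Cd68 held 1. A match is a stretch of letters and does not show that PU.1 binds there. The array names PU.1 Sfpi1, and no probe of it was detected.

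Around the receptor, both ligands of Csf1r differed, in opposite directions. Csf1, the growth factor of the lineage, was 10.33, 10.47, 10.42, 10.40 and 10.28 in nitrate treated mice and 9.89, 9.99, 10.05, 10.12, 10.22 and 10.16 in controls, so the groups did not overlap. It was 0.31 ± 0.07 higher (SE, 1.24-fold, unadjusted P = 0.00125, adjusted P = 0.143, exact permutation P = 0.00433). Csf1 has a further pair of detected probes with differences of 0.23 and 0.19, and the mean of the 3 probes was 0.24 higher, under a fold change of 1.2. Il34, the other ligand, was 7.35, 8.08, 7.95, 7.91 and 7.15 in nitrate treated mice and 8.31, 7.98, 8.59, 8.05, 8.01 and 7.98 in controls. It was lower by 0.47 ± 0.18 (SE, -0.47 log2 units, unadjusted P = 0.0245, adjusted P = 0.294), with 2 nitrate treated mice (1 and 5) well under all others. It no longer passed the threshold without nitrate treated mouse 1 (-0.38) or 5 (-0.33) or without control mouse 3 (-0.38).

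Among the transcription factors of the lineage, Cebpa, which serves myeloid cells and fat cells alike, was 10.65 to 10.91 in nitrate treated mice and 11.11 to 11.87 in controls, without overlap. Its difference was -0.68 ± 0.12 (SE, unadjusted P = 0.000139, adjusted P = 0.0938, exact permutation P = 0.00433). Of the 10 genes detected in this list, 1 was called higher (Csf1) and 2 lower (Il34, Cebpa), with a median of -0.14. Maf differed by 0.05 (adjusted P = 0.870).

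Of 27 further pan-macrophage genes detected, the nitrate group had the higher mean in 15 and the lower in 12. Of these 27, 0 were differentially expressed in limma and 1, Lst1, had an unadjusted P value under 0.05 (0.0232, with a difference of -0.20). The median difference was 0.03, against 0.014 over all detected probes. Fcgr1, a receptor for immunoglobulin G, differed by -0.06 (95% interval -0.49 to 0.37), and Mertk, which binds dying cells, by -0.06 (-0.38 to 0.26). Lst1 was picked out after its value was seen.

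Uptake receptors and genes of resident arterial macrophages held single calls in both directions. Of 18 scavenger and phagocytic receptors detected, Colec12 (0.34, exact permutation P = 0.0260) and Tyro3 (0.28, 0.0433) were called higher and Scarb1 (-0.27, 0.0584) lower, with a median of 0.16. Of 21 genes of resident macrophages, Gas6, the ligand of Tyro3, Axl and Mertk, was called higher (0.27, exact permutation P = 0.0152) and the endothelin receptor Ednrb lower (-0.29, 0.0563), with a median of 0.05. In limma the adjusted P values of these 5 genes lay between 0.260 and 0.325. Tyro3 met the detection criteria on 2 of 5 nitrate and 5 of 6 control arrays, and was well above background on 5 and 6. The call of Gas6 was lost without control mouse 1, which was lowest at 14.32 (0.18), and without nitrate treated mouse 2 (0.24), 3 (0.26) or 4 (0.25). Tyro3 lost it without control mouse 1 (0.27), 2 (0.24) or 6 (0.26) or nitrate treated mouse 1 (0.24) or 5 (0.20), and its other probe differed by 0.26 (adjusted P = 0.627). Scarb1 lost it without control mouse 1 (-0.20), 3 (-0.23) or 5 (-0.27) or nitrate treated mouse 1 (-0.24) or 2 (-0.22), while its other detected probe differed by -0.48 (adjusted P = 0.159). Ednrb lost it without control mouse 1 (-0.25), 3 (-0.28) or 6 (-0.27) or nitrate treated mouse 1 (-0.24), 4 (-0.29) or 5 (-0.20), and its other probe differed by -0.40 (adjusted P = 0.478). Colec12 kept it in every fit that left out a mouse. Without both arrays with high heart muscle genes, Gas6 (0.16), Tyro3 (0.27), Scarb1 (-0.25) and Ednrb (-0.25) were not called. With slide as a block Tyro3 (0.25) and Ednrb (-0.27) were not called, nor with the replicate block (0.26 and -0.27). With normexp background correction Tyro3 (0.24), Scarb1 (-0.24), Gas6 (0.26) and Ednrb (-0.20) lost the call, and 75th percentile scaling ended that of Gas6 (0.23) and Scarb1 (-0.26).

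Recruitment genes included Vcam1, the adhesion molecule that monocytes bind on the vessel wall. It was 10.89, 11.21, 10.64, 10.60 and 10.65 in nitrate treated mice and 10.12, 10.39, 10.30, 10.47, 10.52 and 10.49 in controls, without overlap. The difference was 0.42 ± 0.12 (SE, 1.33-fold, adjusted P = 0.192, exact permutation P = 0.00216, the smallest that these group sizes allow), and its other probe differed by 0.52. Ccl5, a chemokine of T cells and monocytes, was lower, at -0.87 ± 0.26 (SE, adjusted P = 0.206). They were the called genes of 18 detected in this list, whose median was 0.03. Ccr2, the receptor of recruited monocytes, was 5.63 ± 0.45 in nitrate treated mice and 5.83 ± 0.44 in controls (SD, n = 5 and 6, adjusted P = 0.738).

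Among the partners of Cd14, Tlr2, a receptor for bacterial lipoproteins, was higher in nitrate treated mice. Its signals were 8.23, 8.52, 8.07, 8.08 and 8.10 in nitrate treated mice and 7.76, 7.75, 7.83, 7.68, 7.70 and 7.53 in controls. The groups did not overlap, and the difference was 0.49 ± 0.09 (SE, 1.41-fold, unadjusted P = 0.000166, adjusted P = 0.0940, exact permutation P = 0.00216). Tlr2 was the called gene of 11 detected, and their median was -0.01. Tlr4, the receptor that Cd14 serves, differed by 0.03 (adjusted P = 0.909). Of 8 detected partners and relatives of the CD11b integrin 0 were called in limma and 0 had an unadjusted P value under 0.05. Itgb2, the beta chain, differed by -0.03 (95% interval -0.36 to 0.31) and Itgal by -0.34 (-0.73 to 0.06). Itgal met the detection criteria on 4 of 5 nitrate and 6 of 6 control arrays, so it entered the test through the controls, where its mean was higher.

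**Figure D4:**
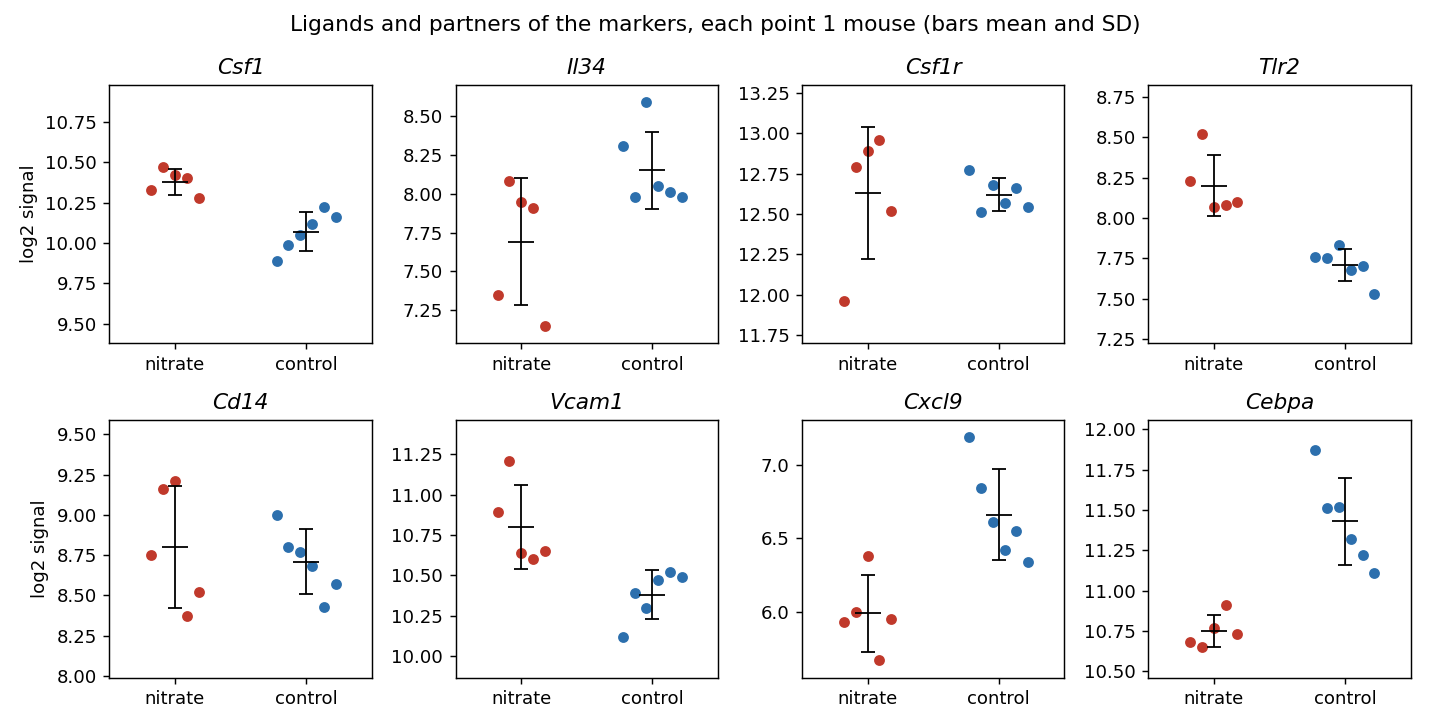
Log2 signals by mouse for Csf1r and its ligands Csf1 and Il34, Cd14 and its partner Tlr2, and the called genes Vcam1, Cxcl9 and Cebpa, with nitrate treated mice (n = 5) in red, controls (n = 6) in blue, and mean and SD as bars. The vertical axes differ between panels. The groups do not overlap for Csf1, Tlr2, Vcam1 and Cebpa, and they overlap for Csf1r, Cd14, Il34 and Cxcl9.

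Activation genes called by the threshold were all lower in nitrate treated mice. Of 27 genes listed, 13 were detected, and Cxcl9 (-0.67, exact permutation P = 0.00649), Nos2 (-0.32, 0.0238) and Socs3 (-0.35, 0.0238) were called. Cxcl9 is a chemokine induced by interferon gamma, Nos2 the inducible nitric oxide synthase, and Socs3 an inhibitor of cytokine signaling. Tnf, Il1b, Il6 and Il10 were not detected, and the alternative activation gene Retnla differed by -0.01 (adjusted P = 0.985). The list had a median of -0.07 and 0 genes called higher. The calls of Nos2 and Socs3 were lost without control mouse 1 (-0.24) and control mouse 2 (-0.26), respectively. With normexp background correction Nos2 was at -0.22 and not called, and Cxcl9 kept its call at -0.38.

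Of 18 detected genes of lipid-loaded macrophages, Gpnmb (0.27, exact permutation P = 0.00433) was called higher and Mmp9 (-0.50, 0.0130) lower, with a median of -0.12. Mmp9 was detected on 4 of 5 nitrate and 6 of 6 control arrays, so it entered the test through the controls, where it was higher. Gpnmb met the detection criteria on 2 of 5 nitrate and 5 of 6 control arrays, and was well above background on 5 and 6. It lay at the fold threshold and lost its call without nitrate treated mouse 2 (0.20) or 3 (0.26) or control mouse 1 (0.25) or 6 (0.25). It was not called with the replicate block (0.25), with 16 added before log2 (0.25) or with normexp (0.21). Mmp9 was at -0.33 with 16 added and at -0.17, not called, with normexp. Of 13 genes of hemoglobin and iron handling around Cd163, the heme-degrading enzyme Hmox1 was called higher (0.30 ± 0.09 SE, exact permutation P = 0.0152) and Cd93 lower (-0.33 ± 0.09 SE, 0.0130), with a median of -0.03. Hmox1 lost its call without nitrate treated mouse 2 (0.26), and its undetected probe differed by 0.05.

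Counted once each, 8 of the 147 related genes detected were called higher and 10 lower, together 12.2% against 9% of all detected probes. In limma 0 of them passed an adjusted P of 0.05. The number called higher was 5 without nitrate treated mouse 2 and 14 without nitrate treated mouse 1, and the number called lower stayed between 7 and 14 when a mouse was left out.

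The genes of fat cells were lower in nitrate treated mice. Of 12 adipocyte genes, 8 were called lower and 0 higher, with a median of -0.40. Adipoq, the fat cell hormone adiponectin, was lower by 0.49 ± 0.11 (SE, -0.49 log2 units, adjusted P = 0.130) and Pparg, which directs fat cell differentiation, differed by -0.57, both without overlap. Plin1 and Plin4, proteins of the lipid droplet, differed by -0.24 and 0.09 (adjusted P = 0.449 and 0.716), and Retn, Cidea, Lipe, Cfd, Pnpla2 and Dgat2 were the other called genes. The mean of the list ran from -0.48 to 0.01 in nitrate treated mice and from -0.09 to 0.46 in controls. Cebpa, Lpl, Cd36 and Fabp4 of the macrophage lists are also expressed by fat cells. Whether the fall of adipocyte genes has a part in these values or in those of the markers was not tested.

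**Figure D5:**
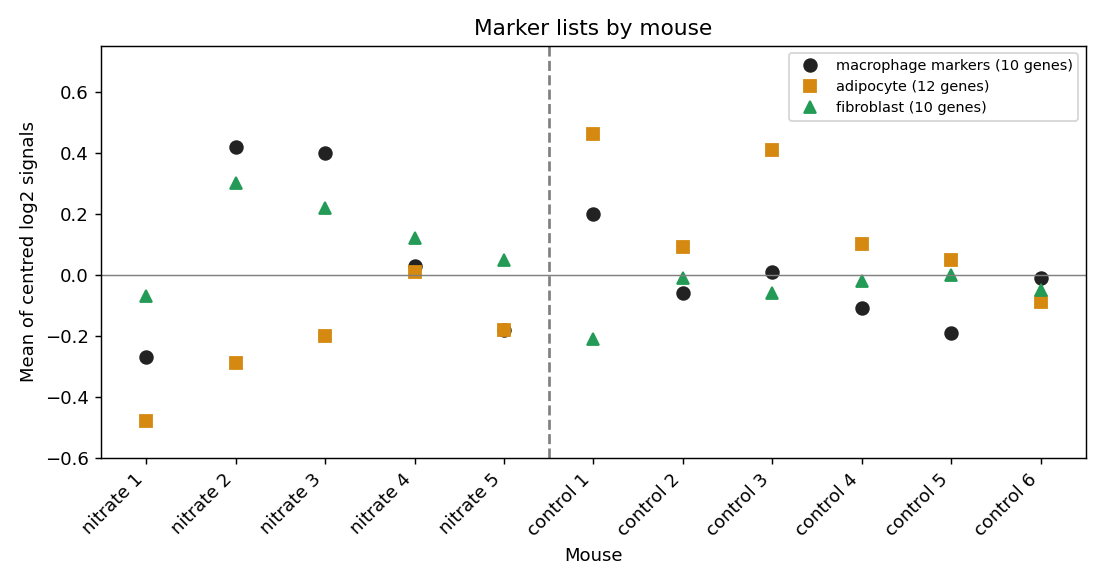
Mean of log2 signals, each gene centred on its median over 11 arrays, for 3 marker lists in each mouse (horizontal axis, nitrate treated mice left of the dashed line). Macrophage markers range from -0.27 to 0.42 in nitrate treated mice and from -0.19 to 0.20 in controls, and adipocyte genes are at or under 0.01 in all 5 nitrate treated mice.

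Of the genes that mark fibroblasts, cells of the outer layer like macrophages, all 10 were higher in the whole aorta, with a median of 0.22, and limma called 0 of them, with 3 under an unadjusted P of 0.05. Pdgfra, Dpt and Dcn differed by 0.12, 0.21 and 0.05 (adjusted P = 0.452, 0.425 and 0.867). The list was highest in nitrate treated mice 2 (0.30) and 3 (0.22), the mice in which the macrophage markers were highest. Its part in the marker values was not tested. All 10 smooth muscle genes were higher as well, with a median of 0.18, and Lmod1 was called (0.31), with Myh11, Acta2 and Tagln at 0.15, 0.03 and 0.06. Of 10 endothelial genes Robo4 was called lower (-0.59), with Cdh5, Pecam1 and Tie1 at -0.20, 0.18 and -0.09.

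Blood cell lists were sparse. Of 5 neutrophil genes detected, S100a9 was called lower (-0.88), S100a8 differed by -0.70 (adjusted P = 0.377) and Ngp was not detected. Control mouse 1 was highest for both, at 10.12 for S100a9 and 8.31 for S100a8. S100a9 was at -0.52 and still called without that mouse. It lost its call without control mouse 2, 3 or 4 and without any single nitrate treated mouse. Of 7 T and NK cell genes, Cd2 was called lower without overlap (-0.73, adjusted P = 0.0940), Cd3e and Cd3d differed by 0.01 and -0.09, and Cd3g was not detected. Cd79b (-0.81) and Igj (-1.26) were called lower among 3 B and plasma cell genes detected, whereas Ms4a1 and Cd79a were not detected. Of 2 dendritic cell genes 0 were called and 0 had an unadjusted P value under 0.05, and Flt3 and Xcr1 were not detected while Zbtb46 differed by -0.13. Kit (-0.81) and Tpsb2 (-0.40) were called lower among 6 mast cell genes, with Cpa3, Cma1 and Mcpt4 at -0.50, -0.23 and -0.41. Of 6 red cell genes 0 were called and 0 had an unadjusted P value under 0.05, and Hbb-b1, Hba-a1 and Hbb-b2 were at -0.46, -0.45 and -0.43. Among 7 genes of brown fat cells Cidea was called lower (-0.52), and Ucp1 and Cox8b differed by 0.23 and -0.35. Of 8 heart muscle genes Ryr2 was called higher (0.48), with Myh6, Actn2 and Tnni3 at 1.64, 0.37 and 0.80.

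The lists of other cells were also compared without nitrate treated mouse 4 and control mouse 1. Adipocyte genes then had 9 calls, all lower, with Plin1 added (-0.29), and a median of -0.35. The neutrophil gene S100a9 lost its call (-0.41), and S100a8 was at -0.32. With only control mouse 1 left out S100a9 was at -0.52 and called. With only nitrate treated mouse 4 left out it was at -0.77 and not called. For S100a8 the 2 mice were not left out singly. The mast cell genes Cpa3 (-0.70) and Mcpt4 (-0.64), the lymphatic gene Sema3d (0.31) and the heart muscle genes Myl4 (0.43) and Tnnt2 (0.46) gained a call, and Myh6 was at 1.68 without one. Of the smooth muscle genes 9 of 10 and of the fibroblast genes 10 of 10 were still higher, with medians of 0.13 and 0.18. The other called genes of these lists kept their call. Each mouse was also left out in turn, a choice made after seeing the data. The calls of S100a9, Igj, Lmod1, Lipe, Cfd, Pnpla2 and Dgat2 were lost in at least 1 of these fits. S100a9 ranged from -1.07 to -0.52 and was called only without control mouse 1, 5 or 6. Dgat2 was called only without control mouse 6 or nitrate treated mouse 4 or 5. Igj kept its call only without control mouse 4, 5 or 6 or nitrate treated mouse 2 or 4. Pnpla2 kept its call only without control mouse 2, 4 or 6 or nitrate treated mouse 4 or 5. Adipoq, Pparg, Retn, Cidea, Robo4, Cd2, Cd79b, Kit, Tpsb2 and Ryr2 were called in each of these fits.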

How the data were processed

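Gene expression was measured on one-color arrays in the aorta of 5 nitrate treated and 6 control mice. The authors deposited spot intensities written by Feature Extraction, with background subtracted and no scaling between arrays, and a table of log2 values that proved to be quantile normalized and centred on the median of the 11 arrays. For the main values here, signals under 1 were set to 1, flagged spots were left out, and log2 values were averaged over the spots of a probe and quantile normalized. The number of arrays limits the precision. Groups were compared with limma 3.58.1 (R 4.3.3) over all detected probes, and single values also by an exact permutation test of the group labels, two-sided. P-values compare the difference between groups with the spread between mice. Genes outside the 10 markers stand by their brightest detected probe. Members, related lists and lists of other cells were chosen with earlier results of these data known. Named were all markers, called genes of a related list (otherwise the first 2 detected), the first 3 and called genes of other lists, and the 10 transcripts most like the markers. Other genes were named after their values were seen. Names are those of the files, with older symbols matched through RefSeq. Alternatives covered scaling, background, filters, flags, prior, slide, replicate number, probe choice and each mouse left out. The test was tried on simulated data.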

Additional observations from a re-analysis of the deposited data

Results flagged for a closer look

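In groups of 5 or 6 mice, 3 values lay far from the rest of their group among 33 probes tested in both groups, all of them in controls, and chance flags about 1 in 20 groups. For Csf1r probe A_55_P2025073, control mouse 5 was lowest at 7.35, with a gap to the next mouse of 0.843 of the range of the controls. For the repeat probe of Itgam, A_55_P1977934, control mouse 3 was lowest at 14.31, with a gap of 0.808 of the range. For Gas6, control mouse 1 was lowest at 14.32, with a gap of 0.754 of the range.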

How the results depend on the processing

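No marker probe was differentially expressed in limma under any alternative or without any mouse. Over 322 fits the smallest unadjusted P value was 0.0716 and the smallest adjusted P value 0.398. Without single mice, differences ranged from 0.03 to 0.34 for Cd163, 0.03 to 0.31 for Lyz2, 0.01 to 0.18 for Mrc1, 0.03 to 0.20 for Aif1 and Csf1r A_52_P602091, 0.04 to 0.21 for Emr1, 0.07 to 0.28 for Itgam A_55_P1977929, 0.02 to 0.19 for Itgam A_55_P1977934, -0.01 to 0.20 for Cd14 (below 0 without nitrate treated mouse 3), -0.03 to 0.21 for Cd68, -0.07 to 0.16 for Lyve1, -0.05 to 0.03 for Csf1r A_55_P2025073, -0.08 to 0.17 for Csf1r A_55_P2025078 and -0.20 to 0.00 for Itgam A_55_P1977926. Csf1r A_55_P2025073 turned above 0 with the replicate block (0.00), with slide as a block (0.01) and without nitrate treated mouse 4 and control mouse 1 (0.02). Csf1r A_55_P2025078 turned below 0 with 75th percentile scaling (0.00), with the replicate block (-0.01) and without those 2 mice (-0.05), and Itgam A_55_P1977926 above 0 without them (0.02). On slide 1, Aif1 was at -0.18, Cd163 at -0.23, Csf1r A_55_P2025078 at -0.27 and Itgam A_55_P1977926 at -0.38. On slide 2, with 1 nitrate treated mouse, Cd14 was at 0.58, Cd163 at 0.97, Csf1r at 0.55 (A_52_P602091) and 0.34 (A_55_P2025078), Emr1 A_55_P2144386 at 0.21, Itgam at 0.38 (A_55_P1977926) and 0.50 (A_55_P1977929), Lyve1 at 0.56, Lyz2 at 0.83 and Mrc1 at 0.40, and on slide 3 Lyve1 was at -0.48. Over all detected probes 1 was higher and 2 were lower at an adjusted P value under 0.05, 1715 were higher without the detection filter and 437 with normexp background correction. Of the related genes 0 were higher and 0 lower at the adjusted threshold, and 5 were higher with normexp, against 5 to 14 without single mice. Of 427 refitted values of the 18 called related genes 0 changed sign and 52 lost the call, among them Scarb1 with 16 added before log2 (-0.26) and Ednrb by the mean of its probes (-0.35). Ccl5, Cd93, Cebpa, Colec12, Cxcl9, Tlr2 and Vcam1 kept it throughout. Same-numbered mice did not deviate together (r of 0.01, 0.12, -0.14, -0.13 and 0.18), so the numbers do not pair the samples. With the replicate block, control mouse 6 left out, 1102 probes were higher and 1331 lower, with 0 marker probes called. The run without nitrate treated mouse 4 and control mouse 1 was chosen after seeing the data. The causes of these shifts were not tested.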
